A study of Mus musculus with 6 samples.

Results

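The genes examined here are 10 genes of pulmonary surfactant and of the alveolar type 2 cells that make it: Sftpa1, Sftpb, Sftpc, Sftpd, Abca3, Lpcat1, Napsa, Lamp3, Slc34a2 and Etv5. They were taken by symbol from the authors' table of 23194 genes, where each symbol had 1 row. All 10 passed the filter on low counts, which left 15486 genes. The libraries came from whole left lungs, from adult mice of strain C57BL/6 and wild type genotype. One group was 3 naive lungs. The other was 3 lungs whose left pulmonary artery had been tied for 4 h, followed by 24 h of reperfusion, a warm ischemia-reperfusion injury, here called injured lungs. The naive mice carry no label of a sham operation, so effects of surgery and of ischemia cannot be told apart. A left lung comes from 1 mouse, so the replicates were taken as separate mice, which the labels do not state.

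Surfactant is a film of phospholipid and protein that lowers surface tension in the alveoli. Type 2 cells assemble it in lamellar bodies, lysosome-related organelles, and release it by exocytosis. SP-B and SP-C, encoded by Sftpb and Sftpc, are small hydrophobic proteins that spread the lipid film. SP-A and SP-D, encoded by Sftpa1 and Sftpd, are water-soluble collectins that bind microbes and take part in innate defence. Loss of surfactant function is a known feature of acute lung injury. Whole lung RNA was measured, so fewer type 2 cells and less RNA per type 2 cell cannot be told apart.

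Total counts ran from 18913487 to 34986276 in naive and from 20062818 to 23638078 in injured lungs. The 10 genes took 2.997% ± 0.196 (SD, n = 3) of all counts in the naive group and 3.11% ± 0.151 (SD, n = 3) in the injured group. Levels are given as CPM, counts scaled to a common library size after TMM scaling. Neutrophil markers, such as S100a8, separated the groups. Their summed level ran from 196 to 262 CPM in naive lungs and from 1560 to 2098 CPM in injured lungs. Lcn2, also listed for transitional alveolar epithelium, made up 104 to 148 CPM in naive and 330 to 875 CPM in injured lungs. Of 18 tested neutrophil markers 14 rose, where 2.16% of all genes tested did, and none was at 0 in all libraries. The edgeR call of S100a8 ended when injured replicate 1 or 2, or naive replicate 1 or 3, was left out (highest adjusted p 0.107). It also ended with the replicate number as a block in the fit (adjusted p 0.0708). The summed level of 16 tested alveolar macrophage markers ran from 1501 to 1905 CPM in naive lungs and from 2390 to 2523 CPM in injured lungs, and 3 of them rose (Chil3, Lpl and Mcemp1). Mean Chil3 went from 733 to 1227 CPM and mean Lpl from 282 to 480 CPM, which is most of the difference in the sum. The call of Chil3 ended when injured replicate 1 or 2, or naive replicate 1, was left out (highest adjusted p 0.0698), and that of Lpl when injured replicate 1 or naive replicate 2 was left out (highest adjusted p 0.0760). The median log2 fold change of these 16 markers was 0.055, and 6 of them had estimates below 0. The part of these cells in the values below was not tested.

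The stretches of 250 bases before the transcription start are shown for Sftpa1, Sftpb and Abca3, the 3 genes with a RefSeq entry whose levels were higher in every injured lung than in any naive lung. They are RefSeq promoters of build GRCm38.p6, all on the plus strand: chr14:41131538-41131787 for Sftpa1, chr6:72304360-72304609 for Sftpb and chr17:24351773-24352022 for Abca3. Capitals mark letters of 2 motifs: CTCAAG, a core bound by the lung transcription factor NKX2-1, and TGTTTAC or TGTTTGC, a core of FOXA factors, each searched on both strands.
Sftpa1: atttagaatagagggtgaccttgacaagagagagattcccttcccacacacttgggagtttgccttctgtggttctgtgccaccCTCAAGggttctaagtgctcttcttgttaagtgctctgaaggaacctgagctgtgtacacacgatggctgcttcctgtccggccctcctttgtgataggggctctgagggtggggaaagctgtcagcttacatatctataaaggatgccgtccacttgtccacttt
Sftpb: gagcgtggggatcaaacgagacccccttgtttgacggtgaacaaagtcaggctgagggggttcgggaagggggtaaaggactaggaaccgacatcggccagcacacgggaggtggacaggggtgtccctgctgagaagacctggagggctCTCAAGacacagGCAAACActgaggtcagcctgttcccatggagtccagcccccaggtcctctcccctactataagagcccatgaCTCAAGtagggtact
Abca3: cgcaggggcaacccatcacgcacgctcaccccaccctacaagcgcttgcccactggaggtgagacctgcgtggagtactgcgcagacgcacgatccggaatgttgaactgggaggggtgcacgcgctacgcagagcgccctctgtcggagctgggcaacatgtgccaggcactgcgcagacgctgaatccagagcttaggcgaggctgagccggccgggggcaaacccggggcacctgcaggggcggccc
Sftpa1 held CTCAAG once, from base -166 to -161. Sftpb held it at -100 to -95 and again at -15 to -10, with TGTTTGC on the other strand at -88 to -82. Abca3 held neither motif. Of the 10 genes, 7 had an entry in the RefSeq table, and in 2 of these 7 a window of 300 bases around the start held CTCAAG. The same letters were in 15.9% of all 32851 promoters of that length. The FOXA letters were in 3 of the 7 (Sftpb, Lamp3 and Etv5) and in 8.48% of all. Letters of ETS factors, CCGGAAG or AGGAAGT on either strand, were in 1 of the 7 (Etv5) and in 17.3% of all. Etv5 had 2 windows, and a match in either was counted for the gene. The shares of all count each promoter by itself, so genes and promoters are unlike units here. A match is a run of letters and no evidence of binding.

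Per transcript length, Sftpc stood far above the others. Its FPKM, the authors' value per transcript length and library size, was 19484 ± 1329 (SD, n = 3) in the naive and 17871 ± 774 (SD, n = 3) in the injured group. Sftpb followed at 2828 ± 273 and 3321 ± 144 FPKM, then Sftpa1 at 1382 ± 87.2 and 1780 ± 44.6 FPKM. Each of these steps held in 6 of 6 lungs, as did the step from Sftpa1 to Sftpd. Sftpd and Slc34a2 were not separated, with Sftpd the higher in 4 of 6 lungs. Lamp3 exceeded Napsa in 5 of 6 lungs. Napsa exceeded Lpcat1 in 6 of 6, by a ratio as small as 1.00. Abca3 and Etv5 closed the order, with Abca3 higher in 4 of 6 lungs. By mean CPM, Sftpc ranked 2 among all tested genes, Sftpb 8, Sftpa1 9 and Slc34a2 11.

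**Figure D1:**
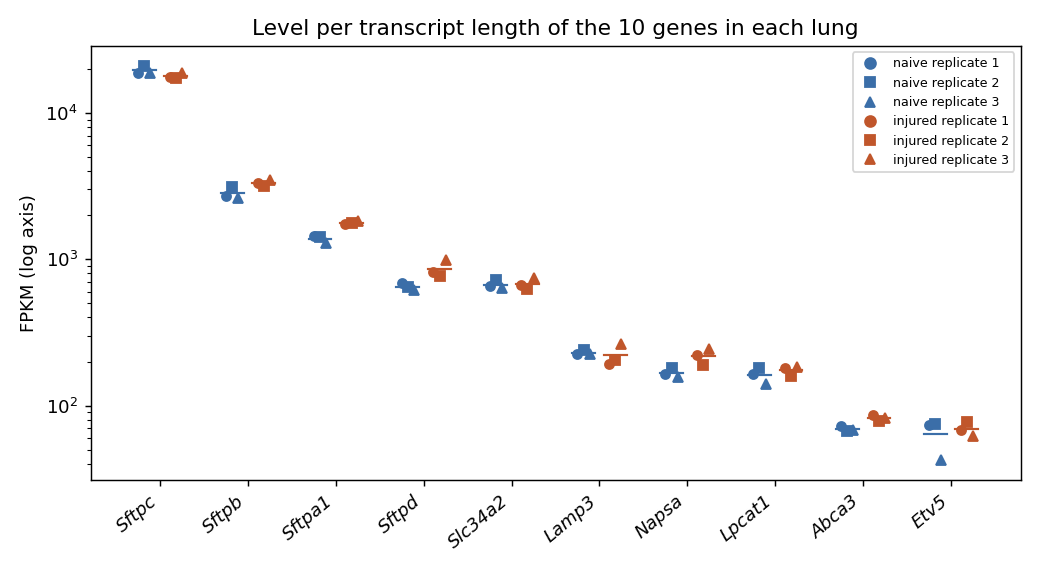
FPKM of the 10 genes on a log axis, with 1 point per lung (blue naive, orange injured) and a short line at the mean of each group. Sftpc lies highest in all 6 lungs, and the order of the first 4 genes is the same in every lung.

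None of the 10 genes passed edgeR's test, with all libraries or with any 1 of the 6 left out. Over the whole table edgeR called 3.11% of genes (adjusted p under 0.05), 2.16% as higher and 0.956% as lower in injured lungs, a split that turned to 251 higher and 781 lower when libraries were scaled to epithelial genes. At an unadjusted p under 0.05, 4 of the 10 genes passed (Sftpa1, Sftpd, Napsa and Abca3), against 16.7% of all genes. The values of 5 genes (those 4 and Sftpb) did not overlap between groups, all with injured lungs higher, against 12.3% of all genes higher in this way and 10.6% lower. No member was lower without overlap. Of the related lists described below, genes of any epithelium had 7 of 18 higher without overlap and 0 lower. These counts were 8 and 2 of 20 for transitional epithelium and 7 and 1 of 17 for surfactant turnover. For other type 2 cell markers they were 4 and 4 of 30. The median log2 fold change of the 10 was 0.16, beside -0.00096 for all genes tested. The largest estimate, 0.39 for Sftpd, is a 1.31-fold difference in mean CPM. Other tools differed: DESeq2 called 3 of the 10 higher (Sftpa1, Sftpd and Napsa) and 3.78% of all genes, while limma-voom called 0. The authors' deposited table has adjusted p under 0.05 for 2 of the 10, both higher, and 3.61% of the 15721 genes with an adjusted p there were called in that direction.

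**Figure D2:**
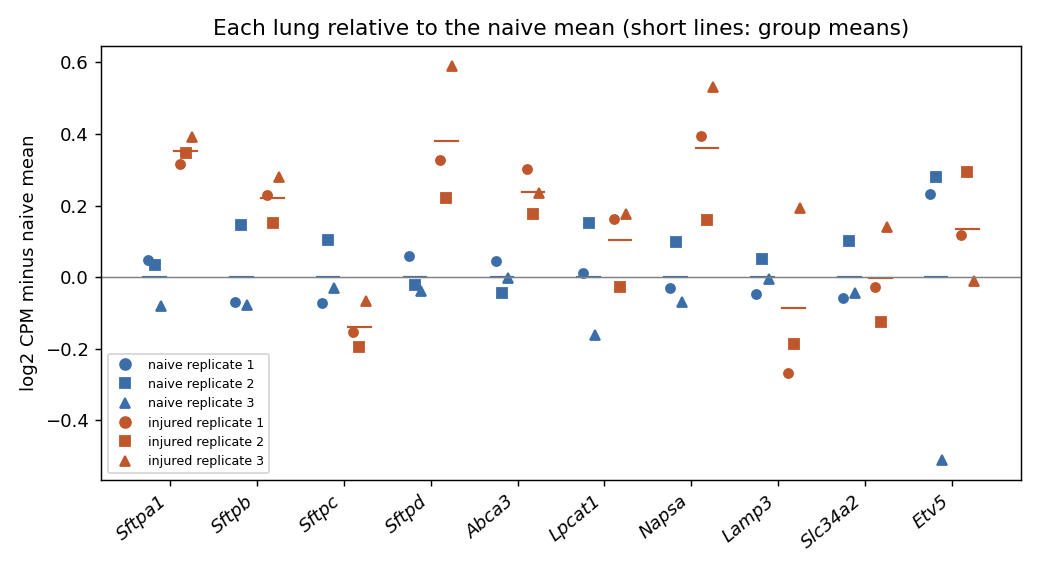
log2 CPM of each lung minus the mean of the naive lungs, per gene, with replicates as circles, squares and triangles and a line at each group mean. The injured points of Sftpa1, Sftpb, Sftpd, Abca3 and Napsa lie above all naive points, while the other 5 genes overlap.

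Among the surfactant proteins, the collectins had the higher estimates. Sftpa1 (ENSMUSG00000021789, mm10 chromosome 14, 41131782 to 41136452) measured 4093, 4055 and 3745 CPM in naive replicates 1 to 3, and 4934, 5040 and 5195 CPM in injured replicates 1 to 3. The spread within each group was small beside the gap between them. Its log2 fold change was 0.35 ± 0.10 (SE) with a 95% interval of 0.13 to 0.58 and an adjusted p of 0.106 by edgeR. DESeq2 gave 0.35 with an adjusted p of 0.00185, and the authors' deposited table gives 0.33 with an adjusted p of 0.00370, the lowest there of the 10.

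Sftpd (ENSMUSG00000021795, mm10 chromosome 14, 41172212 to 41185198) lies close to Sftpa1. It measured 902, 853 and 842 CPM in naive lungs and 1086, 1009 and 1303 CPM in injured lungs. All injured lungs were above the naive ones, and injured replicate 3 stood highest. Its log2 fold change was 0.39 ± 0.11 (95% interval 0.13 to 0.64, adjusted p = 0.115 by edgeR). Without injured replicate 3 it was 0.28. DESeq2 gave an adjusted p of 0.0248, and the authors' deposited table gives 0.0260. Between both genes lies Mbl1, which encodes the collectin mannose-binding lectin A. Its level was low, with 1.34 CPM in the naive and 0.800 CPM in the injured group (log2 fold -0.73 ± 0.35, adjusted p = 0.340).

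The hydrophobic proteins differed from each other in sign. Sftpb (ENSMUSG00000056370, mm10 chromosome 6, 72304610 to 72314371) measured 4185, 4864 and 4166 CPM in naive lungs and 5150, 4878 and 5334 CPM in injured lungs. The groups did not overlap, but naive replicate 2 and injured replicate 2 differed little. Its log2 fold change was 0.22 ± 0.11 (95% interval -0.030 to 0.46, adjusted p = 0.366 by edgeR). Sftpc (ENSMUSG00000022097, mm10 chromosome 14, 70520941 to 70524081) measured 14951, 16904 and 15412 CPM in naive lungs and 14149, 13755 and 15011 CPM in injured lungs. Injured replicate 3 lay above naive replicate 1, so the groups overlapped. The log2 fold change of Sftpc was -0.14 ± 0.11 (95% interval -0.39 to 0.11, adjusted p = 0.602 by edgeR), and -0.089 without naive replicate 2. On the linear scale the interval runs from 0.763 to 1.08 of the naive level.

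**Figure D3:**
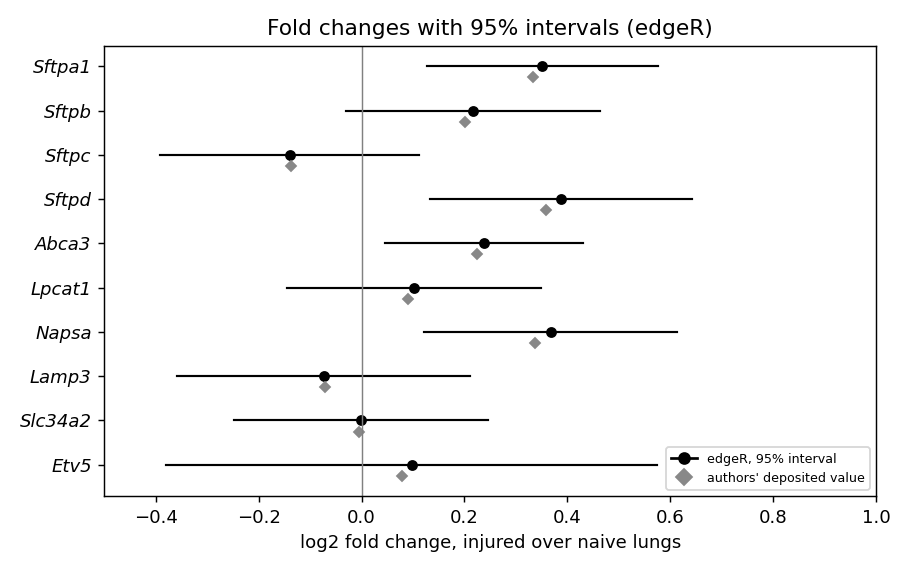
log2 fold change of injured over naive lungs by edgeR with its 95% interval for each gene, and the authors' deposited value as a grey diamond. The intervals of Sftpa1, Sftpd, Abca3 and Napsa lie above 0 before adjustment over all genes, and no interval reaches 0.65.

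Ratios between 2 transcripts of the same lung do not depend on how libraries are scaled. Sftpa1 counts per Sftpc count were 0.274, 0.240 and 0.243 in naive lungs and 0.349, 0.366 and 0.346 in injured lungs, a difference of 0.49 on the log2 scale. Sftpb counts per Sftpc count were 0.280, 0.288 and 0.270 in naive and 0.364, 0.355 and 0.355 in injured lungs, a log2 difference of 0.36. Relative to Sftpc, both transcripts were thus higher in every injured lung than in any naive lung. Sftpc counts per Sftpd count were 16.6, 19.8 and 18.3 in naive and 13.03, 13.6 and 11.5 in injured lungs, a log2 difference of -0.52. The exact two-sided permutation p was 0.1 for each of these 3 ratios, the smallest that 3 against 3 allows (0.2 adjusted over the 6 pairs). The other 3 pairs, among Sftpa1, Sftpb and Sftpd, overlapped between groups, with exact permutation p from 0.3 to 0.9. A ratio shows unequal change and does not say which of its transcripts differed.

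**Figure D4:**
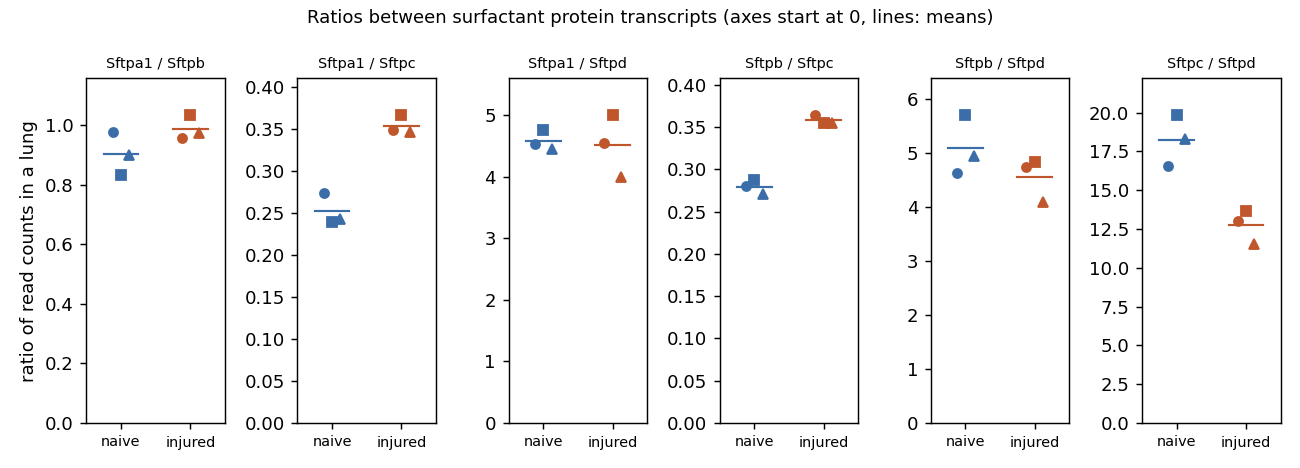
Ratio of read counts within each lung for the 6 pairs of surfactant protein transcripts, with axes from 0 and a line at each group mean. The 3 pairs that include Sftpc separate naive from injured lungs, and the other 3 overlap.

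Of the lamellar body and lipid genes, Napsa and Abca3 had the highest estimates. Napsa encodes napsin A, an aspartic protease that cleaves the SP-B precursor. Napsa (ENSMUSG00000002204, mm10 chromosome 7, 44572432 to 44586862) measured 248, 271 and 241 CPM in naive lungs and 333, 283 and 366 CPM in injured lungs. Injured replicate 2 was only just above naive replicate 2, and replicates 1 and 3 were well above. Its log2 fold change was 0.37 ± 0.11 (95% interval 0.12 to 0.61, adjusted p = 0.121 by edgeR). DESeq2 placed it just past the threshold, with an adjusted p of 0.0486, and the authors' deposited table just short of it, at 0.0507. An annotated antisense gene overlaps Napsa, and the strand setting of the counting is not given in the sources used here. Genes on the opposite strand also overlap Abca3 (D330041H03Rik, 170 counts over all libraries) and Slc34a2 (Gm17182, 149 counts).

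Abca3 encodes the transporter that carries phospholipid into lamellar bodies. Abca3 (ENSMUSG00000024130, mm10 chromosome 17, 24351950 to 24410201) measured 464, 437 and 450 CPM in naive lungs and 555, 508 and 530 CPM in injured lungs. The groups were separate and each was tight. Its log2 fold change was 0.24 ± 0.086 (95% interval 0.045 to 0.43, adjusted p = 0.198 by edgeR). Lpcat1, the acyltransferase that remodels phosphatidylcholine to its dipalmitoyl form, measured 598, 660 and 530 CPM in naive lungs and 665, 582 and 671 CPM in injured lungs. The groups of Lpcat1 overlapped (log2 fold 0.10 ± 0.11, 95% interval -0.15 to 0.35, adjusted p = 0.716), and the estimate was 0.017 without naive replicate 3 and 0.18 without naive replicate 2.

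Lamp3 and Slc34a2 had estimates at or below 0. Lamp3, a membrane protein of lamellar bodies that mature dendritic cells also make, measured 748, 800 and 769 CPM in naive lungs and 641, 678 and 883 CPM in injured lungs. The injured lungs lay on both sides of the naive ones, and the coefficient of variation was 17.7% in injured against 3.40% in naive lungs. The log2 fold change of Lamp3 was -0.074 ± 0.13 (95% interval -0.36 to 0.21, adjusted p = 0.838), and -0.23 to 0.015 with 1 library left out. Slc34a2 encodes the sodium-phosphate cotransporter NaPi-IIb of the apical membrane. It measured 2703, 3020 and 2730 CPM in naive lungs and 2762, 2582 and 3103 CPM in injured lungs, with a log2 fold change of -0.0011 ± 0.11 (95% interval -0.25 to 0.25), and -0.076 to 0.058 with 1 library left out. In the table's mm10 coordinates Lpcat1 lies on chromosome 13 (73467197 to 73516422), Lamp3 on chromosome 16 (19653381 to 19706365) and Slc34a2 on chromosome 5 (53038082 to 53071664).

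Etv5 is an ETS family transcription factor needed to maintain type 2 cells, acting downstream of FGF and RAS signalling. Etv5 (ENSMUSG00000013089, mm10 chromosome 16, 22381309 to 22439719) measured 290, 300 and 173 CPM in naive lungs and 268, 303 and 245 CPM in injured lungs. Naive replicate 3 stood well below the other 5 lungs. The log2 fold change was 0.097 ± 0.20 (95% interval -0.38 to 0.57, adjusted p = 0.874), and -0.12 without naive replicate 3. Its interval was the widest of the 10 genes. Other genes of FGF signalling in the list of transcription factors also missed the threshold: the receptor Fgfr2 had a log2 fold change of -0.26 ± 0.15, and the feedback inhibitors Spry2, Spry4 and Dusp6 had -0.20 ± 0.14, -0.28 ± 0.19 and -0.21 ± 0.17.

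Within a group, the same lung was highest for many of these genes. Injured replicate 3 held the highest injured level of 8 of the 10 genes, where it did so for 35.4% of all genes tested, and injured replicate 2 held the lowest for 7, where it did so for 32.7%. Among naive lungs, replicate 2 was highest for 7 of the 10 (28.3% of all genes) and replicate 3 for 0 (37.4%). Likeness of pattern was measured as the root mean square difference of centred log2 CPM over the 6 lungs, among 10050 other genes at 10 CPM or more. Closest to the median of the surfactant proteins were Spg21 (0.022), Txndc17 (0.026), Ppdpf (0.028), Rpl27 (0.029) and Tjp3 (0.030). The surfactant protein genes themselves lay further from that median: Sftpb 0.044, Sftpa1 0.070, Sftpd 0.107 and Sftpc 0.198. Likeness to the median is thus not likeness to each of these genes. Among the closest to Etv5 were Adc (0.045), Sp4 (0.060), Acss2 (0.064) and Cckar (0.080).

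Other type 2 cell markers moved in both directions. Of 30 tested, 1 rose and 2 fell, with a median log2 fold change of -0.0068. Ctsh, cathepsin H, which cleaves the SP-B precursor alongside napsin A, rose by 0.61 ± 0.10 on the log2 scale (SE; adjusted p = 0.0132 by edgeR), with 340, 274 and 301 CPM in the naive and 484, 446 and 462 CPM in the injured group. Cldn18, a claudin of alveolar tight junctions, fell from 849 ± 39.0 to 589 ± 74.5 CPM (adjusted p = 0.0325). Ppp1r14c, an inhibitor of protein phosphatase, fell from 71.6 ± 7.22 to 45.9 ± 5.08 CPM (adjusted p = 0.0159). Calls were lost with 1 library left out for Ctsh (injured replicate 1 or naive replicate 2), Cldn18 (any except naive replicate 3 or injured replicate 1) and Ppp1r14c (injured replicate 1 or 2, or naive replicate 2), with adjusted p up to 0.115.

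The pathway lists around these genes held few calls. Of 19 processing and folding genes Ctsh alone rose, and 0 fell (median -0.028). Of 30 genes of phospholipid and fatty acid synthesis 0 rose and 1 fell, with a median of 0.016. That gene was Lpin1, a phosphatidate phosphatase, with 73.2 ± 7.24 CPM in the naive and 49.1 ± 4.17 CPM in the injured group, a log2 fold change of -0.58 ± 0.10 (adjusted p = 0.0195). None of 28 genes of lamellar body trafficking and exocytosis passed edgeR's test (median 0.063), with 2 at an unadjusted p under 0.05 and 1 called higher by DESeq2. Its most abundant members were Lamp1, a lysosomal membrane protein (log2 fold -0.068 ± 0.086), and Atp11a, a phospholipid flippase (-0.011 ± 0.11). Leaving out injured replicate 1 or naive replicate 2 ended the call of Lpin1 (highest adjusted p 0.0919).

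Genes of surfactant turnover included calls in macrophage receptors. Of 17 tested, 2 rose and 1 fell (median 0.041). Msr1, a scavenger receptor of macrophages, rose by 2.61 ± 0.30 on the log2 scale, with 2.96 ± 0.397 CPM in the naive and 18.2 ± 7.71 CPM in the injured group (adjusted p = 0.00388). Csf2rb, the shared beta chain of the receptor for GM-CSF, on which surfactant clearance by alveolar macrophages depends, rose by 0.79 ± 0.11 on the log2 scale, with 46.2 ± 2.50 CPM in the naive and 80.02 ± 10.9 CPM in the injured group (adjusted p = 0.00629). Bach2, a transcriptional repressor, fell by 0.76 ± 0.12 on the log2 scale, with 28.8 ± 2.30 CPM in the naive and 16.96 ± 1.67 CPM in the injured group (adjusted p = 0.00843). These shifts stood beside the higher summed level of neutrophil markers given above, whose part in them was not tested. Of the alveolar macrophage markers, the median was 0.055, with Mcemp1, Chil3 and Lpl called higher and Mrc1 (0.090), Pparg (0.00090) and Ear2 (-0.13) not called. Marco, also in the turnover list, was not called either (1.79 ± 0.46, adjusted p = 0.138 by edgeR). It had 17.8 ± 2.58 CPM in the naive and 61.7 ± 37.3 CPM in the injured group. Levels of 5 of the 16 markers were higher without overlap between groups, against 12.3% of all genes, and 6 of the 16 had estimates below 0. Of the other collectins, Colec12, a scavenger receptor, fell (log2 fold -0.43 ± 0.093, adjusted p = 0.0372), 1 of 3 tested. Its call ended when injured replicate 1 or 2, or naive replicate 2 or 3, was left out (highest adjusted p 0.162). The list median, -0.73, is the value of Mbl1, at 1.34 CPM in the naive and 0.800 CPM in the injured group. Colec11 was as low, with 1.03 and 0.297 CPM, so the median rests on genes near the floor.

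Among 27 tested transcription factors and signalling genes of type 2 cells, 1 rose and 0 fell (median -0.042). Cebpb, a C/EBP factor of inflammatory and epithelial cells, rose from 69.9 ± 11.5 to 106.6 ± 8.66 CPM, a log2 fold change of 0.61 ± 0.12 (adjusted p = 0.0310). Its call ended when injured replicate 1 or 3, or naive replicate 1 or 2, was left out (highest adjusted p 0.130) and with scaling to epithelial genes (0.0931). Nkx2-1, the factor that drives surfactant protein genes, stood at 194 ± 18.4 CPM in the naive and 189 ± 17.4 CPM in the injured group (log2 fold -0.038 ± 0.10, 95% interval -0.27 to 0.20).

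Markers of neighbouring epithelia gave the following context. Of 18 genes of any epithelium 1 rose and 0 fell (median 0.11), with a summed level of 1630 to 1686 CPM in naive lungs and 1724 to 1996 CPM in injured lungs. Epcam, an epithelial adhesion molecule, had a log2 fold change of 0.11 ± 0.094. Scaled to these genes in place of all genes, the median of all genes tested moved to -0.17. On that scale Sftpa1 was at 0.19, Sftpb at 0.056, Sftpd at 0.23, Abca3 at 0.075 and Napsa at 0.21. Sftpc was at -0.30, Lamp3 at -0.23 and Slc34a2 at -0.16 there. Lpcat1 (-0.058) and Etv5 (-0.067) turned below 0, and none of the 10 was called.

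Of 20 type 1 cell markers 0 rose and 1 fell (median -0.074). Levels of 6 of the 20 were lower without overlap between groups, against 10.6% of all genes, and 2 were higher, against 12.3%. Estimates were below 0 for 15 of the 20. Col4a3, a basement membrane collagen chain, fell from 441 ± 61.6 to 293 ± 15.5 CPM (adjusted p = 0.0228), with its call lost without injured replicate 1 or 2 (highest adjusted p 0.0828). Ager, the receptor that marks type 1 cells, had a log2 fold change of -0.053 ± 0.12. Of 20 genes of transitional alveolar epithelium, 3 rose and 2 fell (median 0.25). Lgals3, galectin 3, which macrophages also make, rose from 108.6 ± 8.89 to 175 ± 12.6 CPM (adjusted p = 0.00635), while the growth factor Areg fell from 5.79 ± 2.34 to 1.54 ± 0.0567 CPM (adjusted p = 0.0146). The other genes called were Nupr1, a stress-response gene, and Lcn2, lipocalin 2, both higher, and the cyclin Ccnd1, lower. Nupr1 lost its call with any 1 library left out (highest adjusted p 0.191), and Lcn2, which is also in the neutrophil list, lost it without any naive library or without injured replicate 1 (highest adjusted p 0.189). Neither was called with scaling to epithelial genes (adjusted p = 0.121 for Nupr1 and 0.0559 for Lcn2). The call of Areg was lost without injured replicate 1 or 2 (highest adjusted p 0.0669). Of 15 club cell markers 1 rose (median -0.12). It was Cldn10, a claudin, with a log2 fold change of 0.72 ± 0.15 (adjusted p = 0.0306), and it lost its call with any library but injured replicate 3 left out (highest adjusted p 0.138) and by limma-voom (0.0524). Scgb1a1, their main secretory product, had a log2 fold change of -0.12 ± 0.19. None of 18 endothelial markers passed edgeR's test (median -0.023), with 3 at an unadjusted p under 0.05 and 0 called higher or lower by DESeq2. The median of the neutrophil list was 3.05.

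**Figure D5:**
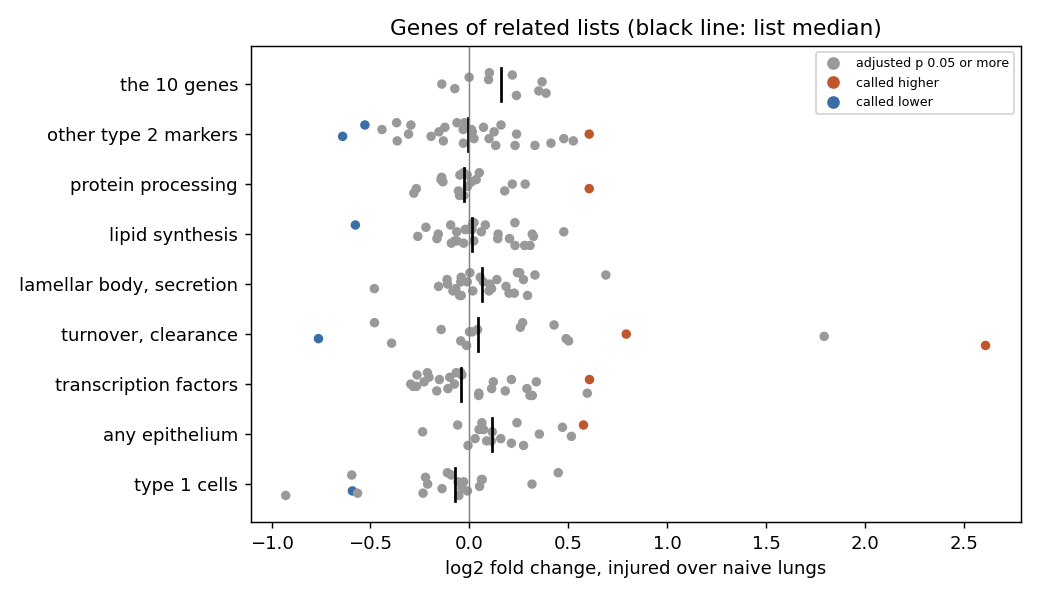
log2 fold change of each tested gene in 9 lists, with a black line at the list median, orange for genes called higher and blue for genes called lower by edgeR. The 10 surfactant genes lie between -0.14 and 0.39 with none called, and calls in the other lists are few.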

How the data were processed

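The authors deposited 1 table of genes with read counts, normalized counts, FPKM, log2 fold changes, p-values and adjusted p-values, per the file headers. Tools named in the submitters' processing notes are STAR, STAR-Fusion, HTSeq, edgeR and DESeq2, with build mm10; for their versions, settings and strand the entry is: not given in the sources used here. The authors' deposited signal (normalized counts) equals the counts divided by 1 factor per library, and the deposited FPKM follows from counts, gene lengths and column totals, both within a relative tolerance of 1e-06.

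Counts were fitted with edgeR 4.0.16 (robust quasi-likelihood F test, filterByExpr, TMM, group as the only term, R 4.3.3, limma 3.58.1). P-values were two-sided and adjusted by Benjamini-Hochberg over all genes tested. Gene means are CPM ± SD, and intervals are 95%. Ratios between transcripts used exact permutation tests over libraries. Depth per library is given with the results. Each of these genes had at least 5127 counts in every library, so counting error was small beside the spread between lungs. The procedure was tested on simulated counts. Alternatives were other scalings, filters and tools (DESeq2 1.42.0, limma-voom), a replicate block and each library left out.

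The genes and lists were chosen with earlier results of these data known. From each of 14 related lists (265 symbols, 258 tested genes) the rule names up to 3 called genes at 1 CPM or more that changed most in the list's main direction and 1 opposite, or the 2 most abundant where none was called; not all are printed, and 2 genes that the rules name are not reported here. Nkx2-1, Ager, Epcam, Scgb1a1 and S100a8 were always named. The FGF signalling genes, Mbl1 and the promoter motifs were chosen outside this rule.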

Additional observations from a re-analysis of the deposited data

How the results depend on the processing

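None of the 10 genes was called in 14 of the 15 alternatives. DESeq2 was the exception, with 3 called higher, and it called 585 genes higher and 417 lower over the table, against 334 and 148 by edgeR. Scaling by epithelial genes gave 781 genes lower over the table and 16 lower in the related lists, against 8. With no filter on low counts 269 genes were lower. With 1 library left out, genes higher ran from 145 to 333, genes lower from 48 to 146, related list genes higher from 15 to 28 (25 with all libraries) and lower from 2 to 10. The log2 difference of the Sftpa1 to Sftpd ratio (-0.028) ran from -0.11 to 0.057 and changed sign without injured replicate 3. The other ratios kept their sign there, and deposited FPKM gave the same values. Sftpa1, Sftpb, Sftpc, Sftpd, Abca3 and Napsa kept the sign of their estimates in all 15 alternatives, Lpcat1 and Lamp3 in 14, Etv5 in 13 and Slc34a2 in 11. Fewer samples were fitted with a library left out. The cause of these shifts was not tested.

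With the replicate number as a block 0 of the 10 genes were called, and 413 genes were higher and 208 lower. Same-numbered lungs had deviations from their group means correlated at 0.10, -0.093 and 0.19 over 14211 genes. The highest correlation was between naive replicate 1 and injured replicate 2 (0.31). Deviations from a mean of 3 lungs depend on each other, so these values cannot decide whether the numbers pair the lungs. With 3 lungs a group, the standard errors of the 10 log2 fold changes were 0.086 to 0.20, which limits what the test can call.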
